A study of Homo sapiens with 12 samples.

Results

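The genes described here are the expressed protein-coding genes of the outer short arm of chromosome 16. They are the 223 genes, of 57820 gene identifiers counted, whose GRCh38 start lies on chromosome 16 below position 28900000 and whose mean level was 1 CPM (counts scaled to the size of the library) or more over the 6 CRISPR libraries. Of the 359 protein-coding genes below that position, 126 were under 1 CPM, and 9 more were left out by name (HMOX2, PLK1, CIITA, ABCC1, and genes for ribosomal proteins and respiratory chain subunits) when the set was drawn up. The region was marked out because its genes stood low together in the BACH1 knockout, so every knockout value of a member is given as a description, without a test. The siRNA comparison was made on other libraries and is tested.

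All libraries came from AsPC-1, a widely used human cell line of pancreatic ductal adenocarcinoma, and were made from rRNA-depleted total RNA read on an Ion Proton. There were 3 libraries in each of 4 groups. The sgBACH1 cells (BACH1 knock-out) were infected with lentivirus made from lentiCRISPR v2, which carries Cas9 and 1 guide against BACH1, and were selected in 10 µg/ml puromycin; sgCont cells (genotype control) are their controls. The siBACH1 cells (BACH1 knockdown) were transfected with a BACH1 siRNA and harvested 24 h later, and siCont cells (genotype control) are their controls. Not given in the sources used here are whether the knockout cells are 1 clone or a pool, and what the control guide and control siRNA were. The labels do not tie replicates to separate cultures, so a p-value reflects how far these libraries differ, and that spread may be technical only.

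BACH1 is a heme-sensing transcription factor that pairs with small MAF proteins and represses genes of heme and iron handling and of the oxidative stress response. BACH1 itself lies on chromosome 21, not on chromosome 16. The short arm of chromosome 16 is gene dense near its end and holds genes of many unrelated functions, and its middle is rich in duplicated segments. When a cell has more or fewer copies of a chromosome arm, the RNA of many genes along it shifts by a similar amount, while other genes on the arm keep their level or move the other way through their own regulation; the copy number of AsPC-1 DNA was not measured here, and its part in these results was not tested.

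Some sequences are shown because the siRNA results below refer to them. The 3′ UTRs of 28 of the 223 members hold AACATTA or ACATTAA, letters picked earlier from these same data because genes with them often fell after the siRNA. Of the following 30-base windows, 2 belong to the members that fell most in siBACH1, 2 to other large falls and 1 to a member that fell with ACATTAA alone. They were read from GENCODE 29 transcripts (GRCh38), 5′ to 3′ on the gene's strand, and capitals mark the match. They lie at chr16:15588224-15588253 (plus, BMERB1), chr16:20735883-20735912 (minus, THUMPD1), chr16:20859470-20859499 (minus, DCUN1D3), chr16:3382110-3382139 (minus, ZSCAN32) and chr16:8849293-8849322 (plus, PMM2).
BMERB1: agctctttgtaAACATTAAacactcttcat
THUMPD1: gagaatctaatAACATTAAaatgctggggc
DCUN1D3: taggttgaattAACATTAcaaaatgataca
ZSCAN32: acaaatttataAACATTActaatttctgat
PMM2: tgaagagtagcACATTAAagtgattttatt
BMERB1 and THUMPD1 share the joined 8 letters AACATTAA, DCUN1D3 and ZSCAN32 show AACATTA, and PMM2 shows ACATTAA. A match is a description and not a shown site.

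The promoters of UNKL, RAB40C and ABCA3 are shown because these are the rising members with the motif TGACNNNGC among the 8 largest siRNA rises at a mean of 8 CPM or more. That motif is the core of the element that BACH1 and NRF2 share with MAF proteins. TGACTCA, the AP-1 element that can overlap it, was searched too, both on either strand. The sequences are from RefSeq (GRCh38.p14), run from 250 bases before the annotated start to 50 bases after it on the gene's strand, and show the matches in capitals. They lie at chr16:1379603-1379902 (minus, UNKL), chr16:589107-589406 (plus, RAB40C) and chr16:2340679-2340978 (minus, ABCA3).
UNKL: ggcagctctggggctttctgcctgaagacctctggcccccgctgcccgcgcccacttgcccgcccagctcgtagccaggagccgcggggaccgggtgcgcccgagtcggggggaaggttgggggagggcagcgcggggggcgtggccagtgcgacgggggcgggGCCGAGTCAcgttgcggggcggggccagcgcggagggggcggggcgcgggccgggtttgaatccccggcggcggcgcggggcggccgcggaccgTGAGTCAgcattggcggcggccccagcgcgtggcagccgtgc
RAB40C: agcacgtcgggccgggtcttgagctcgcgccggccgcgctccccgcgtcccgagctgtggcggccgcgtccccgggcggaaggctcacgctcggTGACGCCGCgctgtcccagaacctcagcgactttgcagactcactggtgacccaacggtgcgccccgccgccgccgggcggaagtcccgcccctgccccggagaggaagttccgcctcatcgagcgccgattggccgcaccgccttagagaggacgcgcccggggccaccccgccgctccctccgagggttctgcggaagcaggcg
ABCA3: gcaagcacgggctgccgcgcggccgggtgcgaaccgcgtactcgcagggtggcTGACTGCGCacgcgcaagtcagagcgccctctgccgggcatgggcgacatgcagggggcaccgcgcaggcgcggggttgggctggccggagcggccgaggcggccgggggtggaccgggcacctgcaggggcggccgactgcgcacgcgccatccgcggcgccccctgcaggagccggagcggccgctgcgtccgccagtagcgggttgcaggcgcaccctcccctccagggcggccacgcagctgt
UNKL holds TGACNNNGC on the reverse strand 86 bases before the start and TGACTCA on the reverse strand 8 bases after it. RAB40C and ABCA3 hold TGACNNNGC on the forward strand 156 and 197 bases before the start. The UNKL start in RefSeq lies inside the gene as GENCODE 29 draws it, which extends farther upstream.

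Library totals ran from 13099706 to 21478886 counts. The 5 ductal and epithelial markers KRT19, KRT8, KRT18, EPCAM and CDH1 summed to between 11437 and 20319 CPM in every library, and the 9 fibroblast, blood and endothelial markers measured summed to between 0.907 and 4.94 CPM, 6 of them below 1 CPM in every library. BACH1 RNA stood at 218.3, 198.1 and 185.3 CPM in sgBACH1 libraries, against 267.8, 293.7 and 276.4 CPM in sgCont libraries; a CRISPR cut can leave the RNA in place, so this level checks the label only in part. In siBACH1 libraries BACH1 was at 24.9, 27.7 and 24.7 CPM, against 196.9, 293.7 and 196.5 CPM in siCont libraries. SiCont replicate 2 stood apart: chi-square per degree of freedom was 30.5 and 35.8 against the other siCont libraries, which differed from each other by 8.89. CPM values were scaled within each experiment, so the levels of the CRISPR and siRNA libraries are not on 1 scale unless said.

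In the knockout the members stood lower as a block. Their median log2 fold change, sgBACH1 over sgCont, was -0.44, which is 26.3% lower on the linear scale, and the quartiles were -0.65 and -0.24. Of the 223 members, 193 (86.5%) lay below 0, whereas the median over all 14469 genes tested was 0.01. The members together took 1.22% ± 0.03 of all counts in sgBACH1 libraries and 1.69% ± 0.02 in sgCont libraries (SD, n = 3 each). By the adjusted p of 0.05 used across all genes (edgeR quasi-likelihood test), 136 members counted as lower and 7 as higher; 12.3% of all tested genes counted as lower and 11.3% as higher. Since this contrast chose the region, nothing is read from these counts. In 145 members all 3 sgBACH1 libraries lay below every sgCont library (18.3% of all tested genes), and in 13 all lay above (18.2%).

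The shift was seen in each knockout library. The sgBACH1 libraries were measured against the mean of the sgCont libraries, and each sgCont library against the mean of the other sgCont libraries. The members' median log2 ratio was -0.46, -0.45 and -0.43 in the sgBACH1 libraries, against -0.03, -0.02 and 0.06 in the sgCont libraries. Those 2 groups of medians do not overlap. In the siRNA experiment, measured in the same way, the medians were 0.16, 0.16 and 0.12 in siBACH1 libraries, against 0.03, -0.07 and 0.02 in siCont libraries. Here the members thus stood slightly higher in siBACH1. With all 12 libraries on 1 scale and siCont as the base, the members' median was -0.27 in sgBACH1, 0.22 in sgCont and 0.16 in siBACH1 cells. For the rest of chromosome 16 it was 0.20 in sgBACH1, 0.32 in sgCont and 0.11 in siBACH1 cells. The experiments were separate, so a level set across them carries any difference between them.

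**Figure D1:**
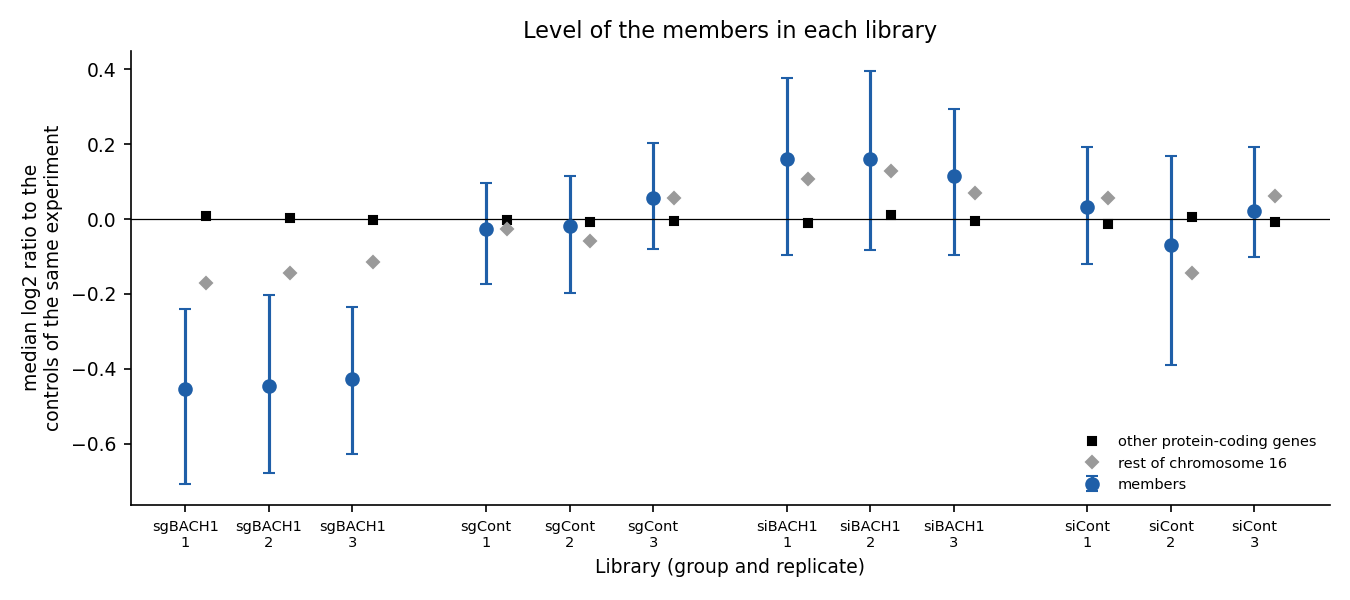
Median log2 ratio of the members in each of the 12 libraries to the mean of the controls of the same experiment (circles, with bars that span the quartiles of the members), with other protein-coding genes (squares) and the rest of chromosome 16 (diamonds). Each control library is set against the mean of the other controls only. The sgBACH1 libraries lie between -0.46 and -0.43, the siBACH1 libraries between 0.12 and 0.16.

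The knockout values of the members were shifted rather than spread out. Among the 193 members with a mean of 8 CPM or more (log2 CPM of 3), 175 lay below 0, and the interquartile range was 0.36 log2 units with an SD of 0.39. For other protein-coding genes above the same level the interquartile range was 0.41 and the SD 0.52, around a median of 0.01. The median standard error of 1 gene was 0.12 in both sets. Of all 223 members, 108 (48.4%) lay within 0.2 log2 units of the member median and 146 (65.5%) within 0.3; of the other protein-coding genes, 44.1% and 59.0% lay that close to their own median. With the members split into 3 sets of increasing level, the median was -0.36, -0.46 and -0.44. With 3 sets of increasing GC content it was -0.38, -0.50 and -0.47. The region was chosen for low knockout values, so nothing on the part of level or base composition is read from these medians.

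**Figure D2:**
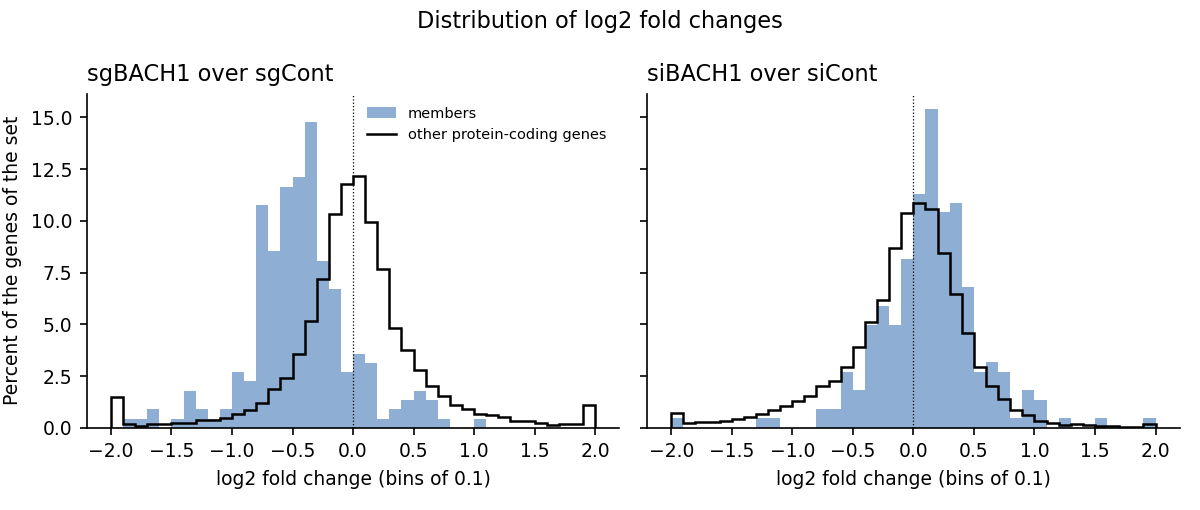
Share of genes in bins of 0.1 log2 units for the members (filled) and for other protein-coding genes (line), in the knockout (left) and the siRNA comparison (right); values beyond 2 either way are in the outer bins. The members' median is -0.44 in the knockout and 0.15 in the siRNA comparison.

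The low values ran along the whole stretch. In steps of 5 Mb the member median was -0.47 from 0 to 5 Mb (127 genes), -0.56 from 5 to 10 Mb (9 genes), -0.50 from 10 to 15 Mb (19 genes), -0.35 from 15 to 20 Mb (23 genes), -0.34 from 20 to 25 Mb (28 genes) and -0.44 from 25 Mb to the limit (17 genes). The longest run of neighbouring members below 0 held 24 genes, from GLYR1 at 4.80 Mb to SNX29 at 11.98 Mb, with a median of -0.54. The limit at position 28900000 did not coincide with a step in these values: the 14 genes from there to 30 Mb all lay below 0, with a median of -0.46. From 30 to 35 Mb the median of 46 genes was -0.16. On the long arm it was 0.37 from 50 to 55 Mb, 0.31 from 55 to 60 Mb and 0.01 from 65 to 70 Mb, and then -0.52, -0.47 and -0.48 in the 3 steps from 75 to 90 Mb. Low medians were thus found at both ends of the chromosome, with values near or above 0 between them.

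The genes next to the limits were TUFM (-0.68) and SH2B1 (-0.61) inside the position limit, and RABEP2 (-0.22) and NFATC2IP (-0.46) outside it, as knockout log2 fold changes. At the limit of 1 CPM, NOXO1 (1.13 CPM; 0.04) and DNASE1L2 (1.32 CPM; -0.22) lay inside, and TIGD7 (0.967 CPM; -0.19) and ERN2 (0.885 CPM; 0.67) outside.

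**Figure D3:**
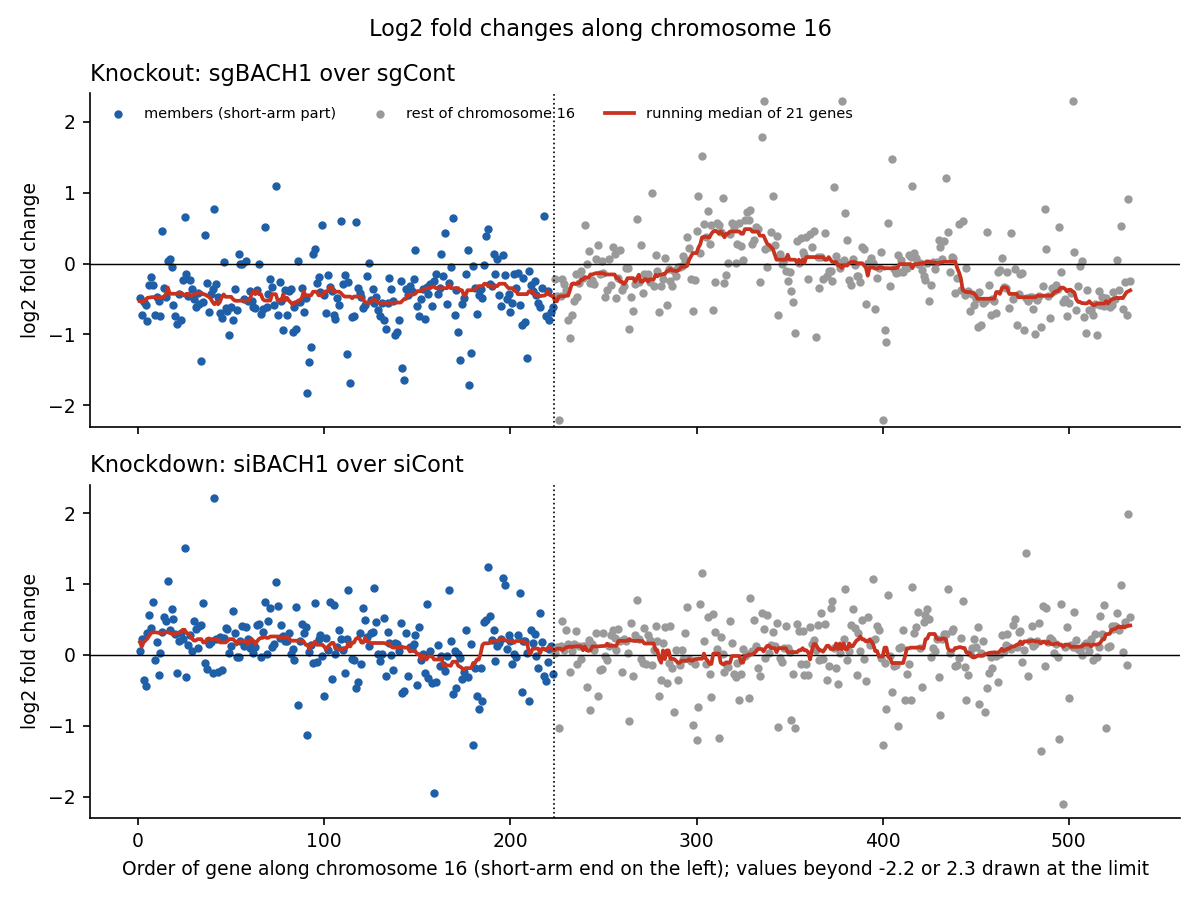
Log2 fold change of each protein-coding gene against its order along chromosome 16, in the knockout (top) and the siRNA comparison (bottom), with the running median of 21 genes; the dotted line marks the end of the members. In the knockout the running median lies below 0 over all members, whose bin medians were -0.56 to -0.34, and again at the long-arm end; in siRNA it ran from -0.21 to 0.35 over the members.

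Among members with a mean of 8 CPM or more, TNFRSF12A, SNN and LITAF stood lowest in the knockout. Below that level GPRC5B (-1.71; mean 2.53 CPM) and VASN (-1.68; mean 2.52 CPM) also stood there. TNFRSF12A encodes Fn14, the receptor for the cytokine TWEAK. It had 92.4, 95.7 and 86.0 CPM in sgBACH1 libraries, against 307.1, 315.3 and 349.8 CPM in sgCont libraries, a log2 fold change of -1.83 ± 0.08 (SE). LITAF, a membrane protein of late endosomes, had 28.91, 28.87 and 32.9 CPM in sgBACH1 libraries, against 94.1, 78.3 and 80.5 CPM in sgCont libraries (-1.48 ± 0.11). SNN, which encodes the small membrane protein stannin and is its neighbour, had 17.4, 15.9 and 18.2 CPM in sgBACH1 libraries, against 52.5, 57.9 and 50.6 CPM in sgCont libraries (-1.64 ± 0.13). The sgBACH1 and sgCont libraries did not overlap in any of these genes.

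Next to TNFRSF12A lie HCFC1R1 and THOC6, and both were among the 12 lowest at 8 CPM or more. HCFC1R1, which encodes a partner of the transcriptional cofactor HCF-1, averaged 27.2 ± 2.0 CPM in sgBACH1 and 71.0 ± 7.15 CPM in sgCont libraries (SD, n = 3 each), a log2 change of -1.38. THOC6, a subunit of the THO complex that couples transcription to mRNA export, averaged 58.4 ± 6.60 CPM in sgBACH1 and 131.7 ± 8.22 CPM in sgCont libraries (-1.17). The annotated spans of HCFC1R1 and THOC6 overlap on opposite strands. Use of strand in counting is a detail not given in the sources used here, so reads of that stretch cannot be told apart with certainty.

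TMC5, a transmembrane channel-like protein, had 88.2, 80.1 and 77.5 CPM in sgBACH1 libraries, against 219.6, 206.9 and 205.5 CPM in sgCont libraries, a log2 fold change of -1.36 ± 0.08 with no overlap. The other genes of the lowest 12 at that level were LMF1 (-1.37), needed for the maturation of lipases, ACSM3 (-1.26), a medium-chain acyl-CoA synthetase, NUBP1 (-1.01), which assembles cytosolic iron-sulfur clusters, NME3 (-1.01), a nucleoside diphosphate kinase, DEXI (-0.97) and the membrane-anchored serine protease PRSS21 (-0.97). In all 12 of these the 2 groups of libraries did not overlap. Exons of TMC5 and LMF1 overlap another gene on the same strand, so their counts are uncertain. In total 14 members (6.28%) stood below -1, and 108 (48.4%) between -0.64 and -0.24.

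A few members went the other way. Of the 223, 30 had a knockout log2 fold change of 0 or above and are called escaping here, and 7 of them counted as higher by the threshold used across all genes. These 7 were ABCA3, UNKL, TMC7, ADCY9, RAB11FIP3, XYLT1 and ANKS4B. The last 3 did not count as higher in every fit with 1 library left out: ANKS4B without sgBACH1 replicate 1 or 2 or sgCont replicate 2 or 3 (log2 fold changes 0.33 to 0.38), RAB11FIP3 without sgBACH1 replicate 2 or 3 or sgCont replicate 1 (0.36 to 0.40) and XYLT1 without sgBACH1 replicate 3 (0.33). Of the 30, 12 had a mean under 8 CPM, and their knockout standard errors ran from 0.30 to 0.67, with 0.66 for NOXO1. The escaping genes did not form a block: the longest runs of neighbouring escaping members held 2 genes (RAB40C and METTL26, IL32 and ZNF205, ANKS4B and CRYM).

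ABCA3, a lipid transporter known from the surfactant of lung cells, stood highest. It had 32.8, 41.3 and 35.2 CPM in sgBACH1 libraries, against 16.6, 16.1 and 18.5 CPM in sgCont libraries, a log2 fold change of 1.09 ± 0.15. UNKL, a zinc finger protein related to the Drosophila gene unkempt, had 28.7, 28.2 and 25.3 CPM in sgBACH1 libraries, against 14.6, 15.6 and 18.2 CPM in sgCont libraries (0.77 ± 0.16). TMC7, of the same family as TMC5, had 49.96, 42.8 and 40.6 CPM in sgBACH1 libraries, against 32.3, 28.2 and 24.7 CPM in sgCont libraries (0.64 ± 0.14). The groups did not overlap in these 3 genes, so TMC5 and TMC7, of 1 family, stood on opposite sides of 0.

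ADCY9, an adenylyl cyclase, averaged 39.3 ± 2.52 CPM in sgBACH1 and 26.0 ± 0.94 CPM in sgCont libraries (SD, n = 3 each), a log2 change of 0.60. XYLT1, which starts glycosaminoglycan chains on proteoglycans, averaged 76.1 ± 8.30 CPM in sgBACH1 and 56.7 ± 2.42 CPM in sgCont libraries (0.43). ANKS4B, a scaffold of intestinal microvilli, averaged 42.2 ± 5.49 CPM in sgBACH1 and 32.2 ± 1.78 CPM in sgCont libraries (0.39). RAB11FIP3, which binds RAB11 on recycling endosomes, stood at 0.47. The highest 12 with 8 CPM or more were completed by CDIP1 (0.59), the somatostatin receptor gene SSTR5 (0.40), ZNF205 (0.20), CPPED1 (0.19) and ABCC6 (0.14), none of which passed the threshold. EEF2K, the kinase of elongation factor 2, stood at 68.9 ± 9.84 CPM in sgBACH1 and 66.3 ± 2.11 CPM in sgCont libraries, and is an example of a well-measured member near 0 (0.06).

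Low knockout values were found in all 12 function lists. Their medians lay below 0, from -0.61 to -0.30, and every list had more genes counted as lower than as higher. The lists were cut from a region chosen for low knockout values, so nothing is read from these medians and counts. Of all tested genes 12.3% counted as lower and 11.3% as higher. All 15 measured mitochondrial proteins lay below 0, with a median of -0.61; 13 counted as lower and 0 as higher. Among them TUFM, the mitochondrial elongation factor Tu, had 246.1, 250.7 and 258.9 CPM in sgBACH1 libraries, against 408.2, 398.9 and 400.8 CPM in sgCont libraries (-0.68 ± 0.07). TRAP1, the mitochondrial HSP90, had 408.0, 443.2 and 451.3 CPM in sgBACH1 libraries, against 616.9, 579.6 and 631.0 CPM in sgCont libraries (-0.49 ± 0.07). The co-chaperone DNAJA3 (-0.75) and the mitochondrial ribosomal protein MRPS34 (-0.61) lay close to them, and the groups did not overlap in TUFM or TRAP1.

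All 24 genes of RNA processing and translation lay below 0 (median -0.39; 16 counted as lower and 0 as higher), among them the splicing-associated SRRM2 (-0.38), the highest member by CPM, the translation termination factor GSPT1 (-0.39), the nucleolar RSL1D1 (-0.32) and the nuclear export receptor XPO6 (-0.44). All 18 genes of the ubiquitin, cell cycle and cytoskeleton list lay below 0 too (median -0.40; 12 lower, 0 higher), with CCNF, which encodes cyclin F, at -0.72, the ubiquitin ligase STUB1 at -0.43 and the deubiquitinase USP7 at -0.20. Of 9 genes of DNA repair and replication, 9 lay below 0 (median -0.58; 6 lower, 0 higher), from the nuclease EME2 (-0.80) and the scaffold SLX4 (-0.72) to PALB2 (-0.14), the partner of BRCA2.

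Of 14 growth signalling genes, 12 lay below 0 (median -0.49; 11 lower, 1 higher). The mTOR regulators TSC2 and MLST8, which act against and within mTOR complexes, stood at -0.62 and -0.64, TRAF7 at -0.71 and the WNT pathway scaffold AXIN1 at -0.30. Of 16 transcription and chromatin regulators, 15 lay below 0 (median -0.41; 12 lower, 0 higher), with the acetyltransferase CREBBP at -0.59, GLYR1 at -0.51, GTF3C1 of the RNA polymerase III machinery at -0.38 and the elongin subunit ELOB at -0.35. Of 20 genes on the surface and secreted epithelial list, 16 lay below 0 (median -0.55, 11 lower and 2 higher), including mesothelin, encoded by MSLN, at -0.61. That list also holds PPL, ANKS4B and CRYM, whose products are not surface or secreted proteins. Of 14 lysosome and membrane traffic genes, 8 counted as lower and 1 as higher (median -0.45), with the chloride transporter CLCN7 at -0.47 and the sorting adaptor GGA2 at -0.43.

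In the smaller lists, 5 of 8 iron-sulfur, redox and stress genes counted as lower and 0 as higher (median -0.43), with the iron-sulfur scaffold NUBP2 at -0.65, TXNDC11 at -0.36 and the methionine sulfoxide reductase MSRB1 at 0.00. Of 8 genes on the glycosylation and lipid anchor list, 6 counted as lower and 2 as higher (median -0.52), with ALG1, which adds the first mannose to N-glycan precursors, at -0.65 and PGAP6 at -0.47. That list is broader than its name: it also holds LMF1, GDE1 and the lipid transporter gene ABCA3, which counted as higher. Of 11 zinc finger genes, 6 counted as lower and 0 as higher (median -0.40). Of 12 genes with near-identical copies, whose reads the counting may have split, 4 counted as lower and 0 as higher (median -0.30), with NOMO1 at -0.78, SULT1A1 at -0.74 and PDXDC1 at -0.32.

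**Figure D4:**
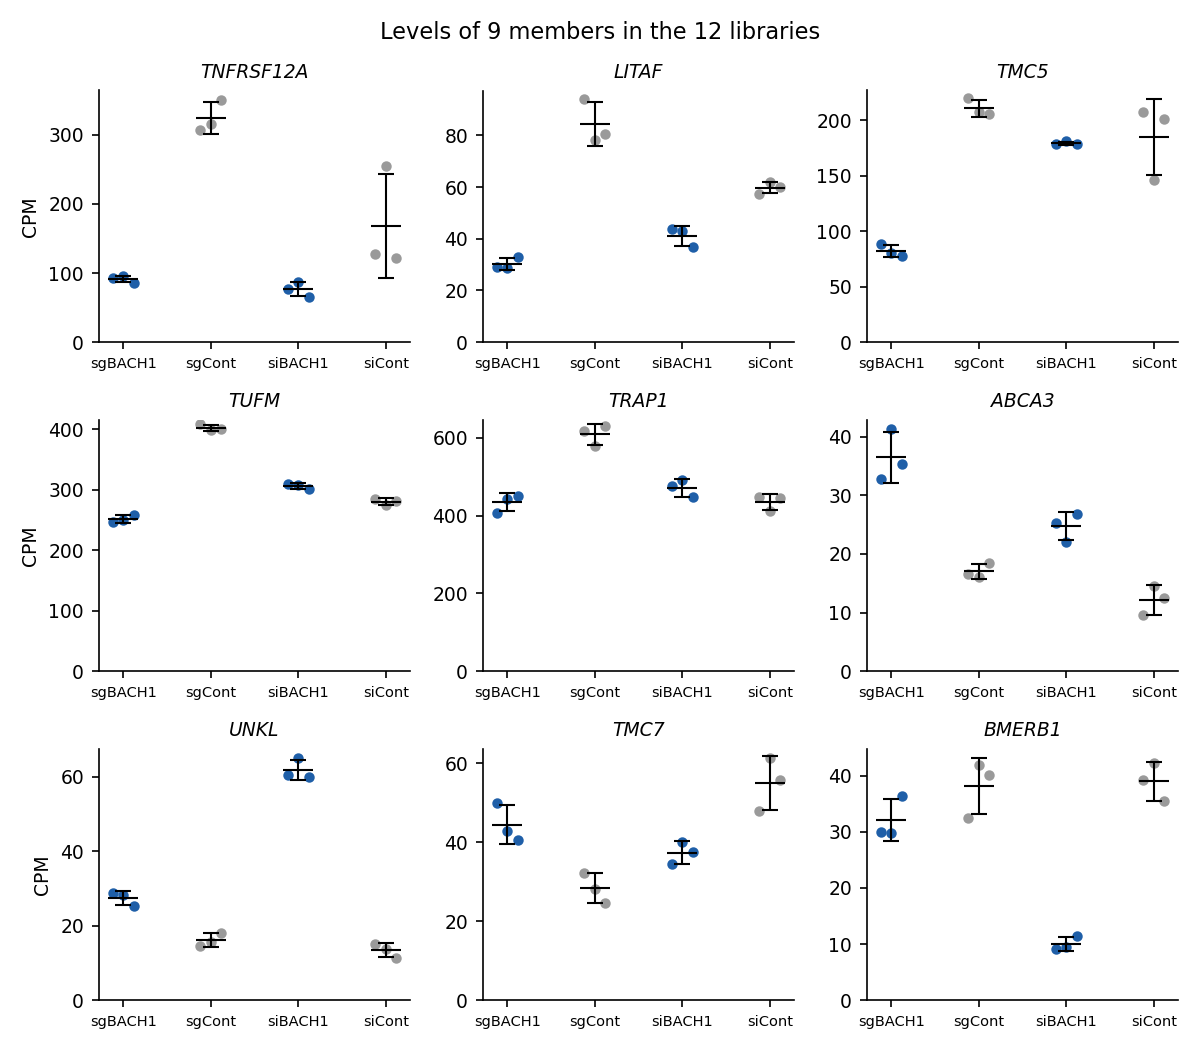
CPM of 9 members in the 12 libraries (points), with the mean and SD of each group (n = 3), scaled within each experiment. TNFRSF12A, LITAF, TMC5, TUFM and TRAP1 lie lower and ABCA3, UNKL and TMC7 higher in all sgBACH1 libraries than in sgCont libraries; BMERB1 is separated only between siBACH1 (10.0 ± 1.21 CPM) and siCont (39.0 ± 3.42 CPM).

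The siRNA comparison did not show the block of low values. Of 221 members tested, 41 rose and 18 fell in siBACH1 cells (edgeR quasi-likelihood test, Benjamini-Hochberg adjusted p under 0.05 over 14591 genes), where 10.9% of all tested genes rose and 13% fell. The members' median was 0.15, and 70 of 221 (31.7%) lay below 0, against a median of 0.00 over all tested genes. In 81 members all siBACH1 libraries lay above every siCont library (21.5% of all tested genes) and in 29 below (21%). These counts depend on single libraries: without siCont replicate 2, 69 members rose and 31 fell. Without siBACH1 replicate 1 or 2, 23 rose and 10 fell, and without siBACH1 replicate 3, 26 rose and 9 fell. The counts over all genes moved too, from 1586 of 14591 rising with all libraries to 2513 of 15112 without siCont replicate 2. Without siBACH1 replicate 1, 813 of 15129 genes rose and 1189 fell. Without siBACH1 replicate 2, 823 of 15078 rose and 1255 fell, and without replicate 3, 821 of 15078 rose.

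The share of members that rose lay near that of genes of like position or GC content. On the rest of chromosome 16, 56 of 309 genes rose (18.1%) and 27 fell, beside 18.6% of the members, and the median was 0.10. The members are GC rich, with a median of 57.0% against 48.0% in other protein-coding genes, and in both sets the siRNA fold change was higher at higher GC content (Pearson r across genes 0.24 over 221 members and 0.21 over 10937 others; genes share libraries and are not replicates). Within the members' middle GC range, 49.9 to 63.7%, 16.4% of members and 15.9% of other protein-coding genes rose. The falls and medians lay farther apart there: 5.45% of members and 10.1% of other genes fell, with siRNA medians of 0.16 and 0.08. With GC and length offsets 28 members rose and 24 fell, with a median of 0.10, and 1612 of all 14591 tested genes rose and 1888 fell. In that GC range the knockout medians were -0.49 for members and -0.06 for other genes.

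UNKL had the largest siRNA rise. It had 60.6, 65.0 and 60.1 CPM in siBACH1 libraries, against 15.1, 13.7 and 11.4 CPM in siCont libraries, a log2 fold change of 2.21 ± 0.12 (edgeR adjusted p = 5.2e-06), with no overlap. ABCA3 had 25.2, 22.1 and 26.8 CPM in siBACH1 libraries, against 9.5, 14.6 and 12.5 CPM in siCont libraries (1.02 ± 0.17; edgeR adjusted p = 0.00242). RAB40C, the substrate receptor of a ubiquitin ligase, had 91.4, 88.0 and 87.2 CPM in siBACH1 libraries, against 46.4, 29.7 and 52.7 CPM in siCont libraries (1.05 ± 0.18; edgeR adjusted p = 0.00272). ABCA3 and UNKL, whose promoters are printed above, therefore rose in siBACH1 and also stood highest in the knockout, whereas RAB40C stood at 0.04 in the knockout with overlapping groups.

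Among members with a mean of 8 CPM or more over the siRNA libraries, the other 5 of the 8 largest rises were CRYM (1.24), which encodes the thyroid hormone binding protein mu-crystallin, the deubiquitinase gene USP31 (0.98), PPL (0.94), which encodes periplakin of desmosomes, the endoplasmic reticulum shaping protein gene ARL6IP1 (0.91) and TNRC6A (0.87), which encodes a partner of Argonaute in microRNA silencing. Their edgeR adjusted p-values lay between 7.94e-05 and 0.00817. Below that level 2 rises were as large, FBXL16 (1.5 ± 0.19; edgeR adjusted p = 0.000507; mean 7.97 CPM) and CORO7 (0.92 ± 0.20; edgeR adjusted p = 0.0099; mean 5.10 CPM). The span of CORO7 overlaps another gene on the same strand, so its count is uncertain. The same holds for RAB40C, USP31 and ARL6IP1 among the rises, and for BMERB1, THUMPD1 and DCUN1D3 among the falls described below. TNRC6A had 89.3, 92.9 and 95.0 CPM in siBACH1 libraries, against 50.3, 51.7 and 49.3 CPM in siCont libraries. In the knockout it had 44.6, 38.5 and 41.0 CPM in sgBACH1 libraries, against 61.3, 65.1 and 58.9 CPM in sgCont libraries (-0.58), the opposite direction, and PPL stood at -0.55 there. CCNF was likewise higher in siBACH1, at 197.3, 207.8 and 205.6 CPM against 133.1, 105.8 and 139.1 CPM in siCont libraries (0.69 ± 0.11; edgeR adjusted p = 0.00159).

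BMERB1, a microtubule-associated protein gene, fell most. It had 9.1, 9.5 and 11.4 CPM in siBACH1 libraries, against 39.2, 42.3 and 35.5 CPM in siCont libraries (log2 fold change -1.95 ± 0.13; edgeR adjusted p = 1.35e-05). THUMPD1, which helps to acetylate tRNA, had 28.8, 28.2 and 30.9 CPM in siBACH1 libraries, against 72.2, 64.3 and 76.0 CPM in siCont libraries (-1.27 ± 0.10; edgeR adjusted p = 3.14e-05). In the knockout BMERB1 stood at -0.25 and THUMPD1 at -0.03, with overlapping groups in both. TNFRSF12A had 77.3, 86.5 and 66.0 CPM in siBACH1 libraries, against 128.1, 254.5 and 122.1 CPM in siCont libraries (-1.13 ± 0.26; edgeR adjusted p = 0.0116). Its size rested on siCont replicate 2: without it the fold change was -0.71 (edgeR adjusted p = 3.67e-07), while without siBACH1 replicate 1 or 3 the call was lost (edgeR adjusted p = 0.0577 and 0.0624).

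The remaining large falls at 8 CPM or more were DCUN1D3 (-0.76), which promotes neddylation of cullins, NSMCE1 (-0.65), a subunit of the SMC5/6 complex, ZSCAN32 (-0.58), TMC7 (-0.56) and LITAF (-0.54), with edgeR adjusted p-values from 0.00119 to 0.0079. LITAF had 43.7, 43.1 and 36.6 CPM in siBACH1 libraries, against 57.5, 61.9 and 60.1 CPM in siCont libraries. TNFRSF12A and LITAF therefore fell in siBACH1 and were among the lowest in the knockout. TMC7 fell to 34.5, 40.2 and 37.6 CPM in siBACH1 libraries, against 47.8, 61.5 and 55.9 CPM in siCont libraries, and stood higher in the knockout.

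Among members with AACATTA or ACATTAA in the 3′ UTR, 7 of 28 fell (25%) and 2 rose in siBACH1 cells; among the 193 without, 11 fell (5.70%) and 39 rose. Among other protein-coding genes 35.4% of those with a match and 9.58% of those without fell. Since the letters were picked on these libraries, that is no independent evidence. The 7 were BMERB1, THUMPD1, DCUN1D3, ZSCAN32, ARHGAP17, GDE1 and PMM2, so 4 of the 8 largest falls at 8 CPM or more held a match, and TNFRSF12A, NSMCE1, TMC7 and LITAF did not. The 2 that rose with a match were USP31 and TNRC6A, both among the 8 largest rises at 8 CPM or more. Below that level FLYWCH2, without a match, also fell (-0.70; mean 5.80 CPM; edgeR adjusted p = 0.0305), a call that was lost without any 1 of the siBACH1 libraries or siCont replicate 3 (edgeR adjusted p from 0.0564 to 0.109). The call of GDE1 was lost without any 1 of the siBACH1 libraries, siCont replicate 1 or siCont replicate 3 (edgeR adjusted p from 0.0649 to 0.0851). In the knockout, which used no siRNA, the median was -0.41 with a match and -0.44 without.

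TGACNNNGC was found in 30 of the 177 members with a RefSeq promoter (16.9%), against 13.6% of all 27305 promoters and 14.3% of those of protein-coding genes. Of the 34 members that rose in siBACH1 and had a promoter, 8 (23.5%) held it, and of the 14 that fell and had one, 3 (21.4%) did; of 23 escaping members 4 did (17.4%), and of 154 members below 0 in the knockout 26 did (16.9%). TGACTCA was in 6 of the 177 (3.39%), against 4.92% of all promoters. The printed promoters are 3 of the 8; 2 of them, UNKL and ABCA3, belong to escaping members that counted as higher.

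In the siRNA comparison, of 15 mitochondrial genes 0 rose and 0 fell in siBACH1 cells (edgeR adjusted p under 0.05; median 0.12), and among them TUFM had 309.6, 307.8 and 301.4 CPM in siBACH1 libraries, against 285.5, 275.4 and 280.9 CPM in siCont libraries (0.13; edgeR adjusted p = 0.201). Over all tested genes 10.9% rose and 13% fell, and the lists are small, so nothing is read from their counts. Of 24 RNA processing genes 3 rose and 3 fell (median 0.13). The rise of SRRM2 (0.31) was lost with GC and length offsets and without any 1 of the siBACH1 libraries (edgeR adjusted p from 0.123 to 0.174). Of 9 DNA repair genes 4 rose and 2 fell (median 0.03), the falls being MPG (-0.44), which removes alkylated bases, and NSMCE1. Among the rises, the call of CHTF18 (0.41) was lost with GC and length offsets (edgeR adjusted p = 0.166). It was also lost without siBACH1 replicate 1 or 2 or siCont replicate 3 (edgeR adjusted p from 0.103 to 0.134). Of 14 growth signalling genes 4 rose and 0 fell (median 0.24), with AXIN1 at 0.74. Of 16 transcription and chromatin regulators 3 rose and 0 fell (median 0.17), CREBBP (0.35) and GLYR1 (0.31) among them. Both calls were lost without any 1 of the siBACH1 libraries or siCont replicate 1 (edgeR adjusted p from 0.0536 to 0.0854 for CREBBP and from 0.0572 to 0.0923 for GLYR1), and CREBBP's also with GC and length offsets (0.151).

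The counts of the remaining lists likewise stand beside 10.9% rising and 13% falling over all tested genes, and nothing is read from them. Of 18 tested genes on the surface and secreted epithelial list 4 rose and 3 fell (median 0.04). Among the rises MSLN stood at 0.36 (edgeR adjusted p = 0.00646, and 0.0592 with GC and length offsets). The other rises were CRYM, PPL and ANKS4B, whose products are not surface or secreted proteins. Of 18 ubiquitin and cell cycle genes 4 rose and 1 fell (median 0.08), and of 14 traffic genes 2 rose and 1 fell (median 0.30). Of 8 genes on the glycosylation and lipid anchor list 2 rose, ABCA3 among them, and 2 fell, GDE1 among them (median 0.10). Of 8 redox genes 2 rose and 0 fell (median 0.11), and of 11 zinc finger genes 1 rose and 1 fell (median 0.20). The call of TXNDC11 (0.30), a redox rise, was lost with GC and length offsets (edgeR adjusted p = 0.103) and with the replicate block (0.0517). It was also lost without any 1 of the siBACH1 libraries (edgeR adjusted p from 0.110 to 0.137). Of 12 duplicated genes 1 rose and 0 fell (median -0.06).

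Taking both comparisons gene by gene, 98 of the 136 members that counted as lower in the knockout were not called in siRNA, 25 rose, 11 fell and 2 were not tested. Of the 30 escaping members 7 rose and 3 fell. Over all members tested in siRNA 18.6% rose and 8.14% fell, and over all tested genes 10.9% and 13%. No relation between the 2 comparisons is read from these counts. Across 221 members the 2 fold changes had a Pearson r of 0.23 and a Spearman rho of 0.13, and across 10937 other protein-coding genes 0.12 and 0.08; these are descriptions across genes of the same libraries. The difference of responses, knockout minus siRNA, from 1 fit of all 12 libraries was called lower in 113 members and higher in 5, where 10.6% and 13% of all tested genes were called, with a member median of -0.61. It contains the contrast that chose the region.

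**Figure D5:**
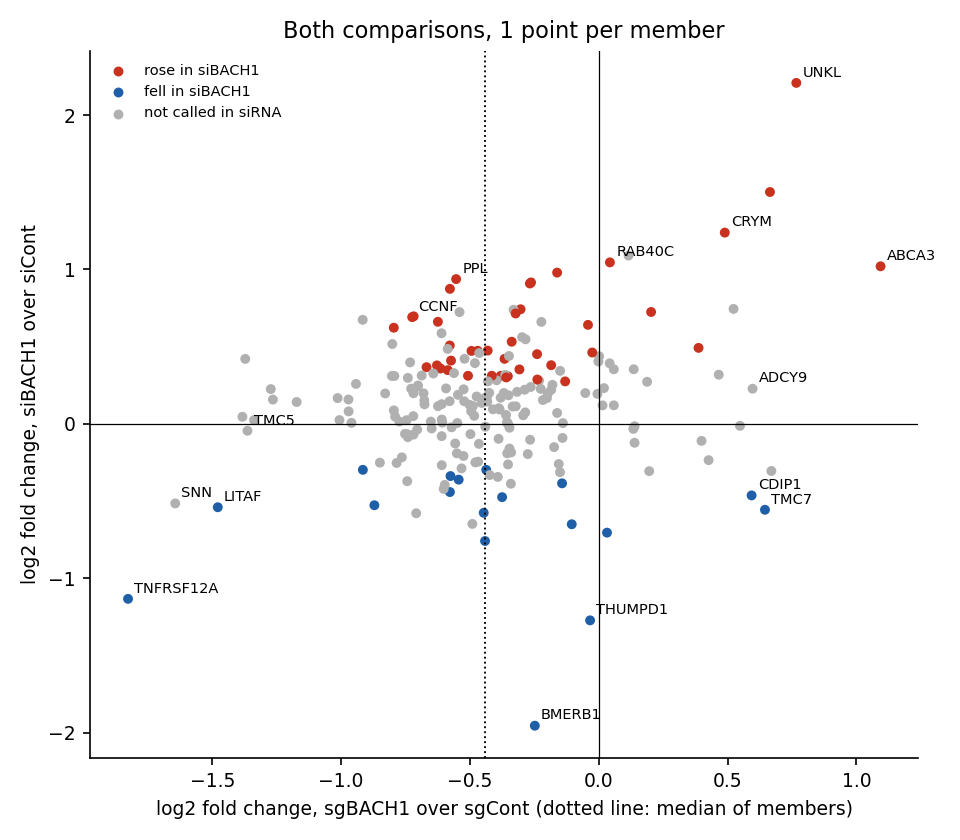
Knockout log2 fold change (horizontal) against siRNA log2 fold change (vertical), 1 point for each of the 221 members tested in both, coloured by the siRNA call; the dotted line is the member median of -0.44. Most points lie left of 0 at siRNA values around 0.15, UNKL, CRYM and ABCA3 lie at the upper right, and TNFRSF12A lies at the lower left.

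The exons of 158 of the 223 members overlap those of another gene on one strand or the other, and 13 belong to duplicated families. Among the 59 members with neither, 32 counted as lower and 4 as higher in the knockout, with a median of -0.36. In siRNA 11 of 58 such members rose and 6 fell, with a median of 0.14, where 10.9% of all tested genes rose and 13% fell. Reads shared with overlapping genes can enter many of the values above. Their part in the low knockout values was not tested, since all members come from a region chosen for those values.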

How the data were processed

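The authors deposited unnormalised counts of reads per gene, made with HTSeq 0.9.1, SAMtools and genome hg19, per the submitters' processing notes. Aligner, counting mode and strand use are details not given in the sources used here. The files hold 1 table for each experiment. Positions, gene types and 3′ UTRs came from GENCODE 29 (GRCh38), which matched 52338 of 57820 identifiers, and no coordinate was converted. Counts were fitted with edgeR 4.0.16 (R 4.3.3): filterByExpr with a minimum count of 10, TMM factors, glmQLFit and glmQLFTest, two-sided, with Benjamini-Hochberg adjusted p over every tested gene and calls below 0.05. The knockout and siRNA fits used 6 libraries each, and the difference of responses 1 fit of 12. CPM are TMM-scaled within an experiment, and ratios per library used CPM plus 0.1. The fits were tested on simulated data. Depth, the sum over genes, was 13099706 counts or more in every library.

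Named genes are the 12 lowest and 12 highest knockout fold changes among members with a mean log2 CPM of 3 or more, the 8 largest siRNA rises and falls at that level, genes beside the limits, and the 4 most abundant members of each function list, of which 1 is not reported here. Genes outside that rule were named after their values were seen: SLX4, EME2, ARHGAP17, PMM2, SNX29, METTL26, IL32, FBXL16, CORO7, FLYWCH2, VASN, GPRC5B, BRICD5 and EEF2K, the last as an example near 0. The members and lists were chosen with earlier results of these data known. Alternatives were other scalings (RLE, upper quartile, factors from genes off chromosome 16), no filter, DESeq2 1.42.0, limma-voom (limma 3.58.1), GC and length offsets, a replicate block, each library left out, 5 CPM, and members without overlaps or 3′ UTR matches.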

Additional observations from a re-analysis of the deposited data

Results flagged for a closer look

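These results are given because the response to the knockout differed from the response to the siRNA. The difference itself, knockout minus siRNA on the log2 scale, was tested in 1 edgeR quasi-likelihood fit of all 12 libraries with Benjamini-Hochberg adjustment over 15644 genes. The knockout part of it chose the region, so for the members it is a description. It was called lower in 113 members and higher in 5. Among the genes named by the rule, the difference was BMERB1 (1.70), THUMPD1 (1.23), TMC7 (1.19), CDIP1 (1.05) and NSMCE1 (0.54) in those called higher, where the siRNA fall was larger than the knockout one or the knockout went up. At -1 or lower it was called in LMF1 (-1.80), PPL (-1.50), TNRC6A (-1.46), UNKL (-1.45), HCFC1R1 (-1.43), ACSM3 (-1.43), CCNF (-1.42), TMC5 (-1.32), THOC6 (-1.32), NUBP1 (-1.19), ARL6IP1 (-1.18), USP31 (-1.15), DEXI (-1.14), SNN (-1.13), PRSS21 (-1.06), AXIN1 (-1.05), PDXDC1 (-1.04), NME3 (-1.04) and RAB40C (-1.01). Between -1 and -0.7 it was called in CHTF18 (-0.99), MSLN (-0.98), MLST8 (-0.97), ZNF174 (-0.95), LITAF (-0.95), CREBBP (-0.94), GLYR1 (-0.83), TUFM (-0.81), TSC2 (-0.75), MRPS34 (-0.74), FLYWCH1 (-0.74) and GGA2 (-0.71). Nearer to 0 it was called in SRRM2 (-0.70), DNAJA3 (-0.69), ZNF263 (-0.68), TRAF7 (-0.67), ALG1 (-0.67), TXNDC11 (-0.67), PGAP6 (-0.66), STUB1 (-0.63), NUBP2 (-0.63), TRAP1 (-0.61), GTF3C1 (-0.56), NOMO1 (-0.54), GSPT1 (-0.50), RSL1D1 (-0.44), XPO6 (-0.43), USP7 (-0.37) and ELOB (-0.37). TNFRSF12A, ABCA3 and ADCY9 are named genes whose difference was not called.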

How the results depend on the processing

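No value given for all members changed sign under any alternative, and calls of 11 named genes in the knockout and 9 in siRNA were lost under at least 1. The knockout median was -0.40 with GC and length offsets and -0.36 without overlapping or duplicated members, of which 6.78% counted as higher; 10 Mb steps gave medians from -0.47 to -0.38, and in siRNA a lowest step of -0.022. The siRNA median was 0.10 with the offsets and 0.18 with upper quartile factors. With the offsets AXIN1 stood at -0.20 in the knockout. The causes of these shifts were not tested. Deviations of same-numbered libraries correlated by 0.0867 or less within each experiment. In the CRISPR experiment these correlations were 0.049, 0.045 and 0.087, and those of other numbers ran from -0.088 to 0.034. In the siRNA experiment they were 0.085, 0.043 and -0.007, and those of other numbers ran from -0.077 to 0.046. Whether replicate numbers pair the libraries is thus not settled. With the replicate block 7 members counted as higher and 136 as lower in the knockout, and 39 rose and 15 fell in siRNA. With the block and the offsets the medians were -0.40 in the knockout and 0.090 in siRNA, where 11.3% rose (25 members). Of all 14591 genes tested in siRNA, 1418 rose and 1778 fell with the block, and 1430 rose and 1732 fell with block and offsets. Leaving out 1 library at a time gave knockout medians from -0.45 to -0.42, 48.4 to 59.6% of members lower and 2.24 to 3.59% higher. In siRNA it gave 10.4 to 31.1% of members rising, 4.05 to 14.0% falling, a median from 0.12 to 0.16, and 813 to 2513 rising and 1189 to 2608 falling genes overall. The extremes came without siBACH1 replicates and without siCont replicate 2. For the difference it gave 1.79 to 3.59% of members higher and a median from -0.64 to -0.57. Depth limited the precision most for low members: the knockout standard errors of the 12 escaping members under 8 CPM ran from 0.30 (FBXL16) to 0.67 (BRICD5), beside a median of 0.12 for members at 8 CPM or more.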
